A study of Mus musculus with 8 samples.

Results

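Meiotic maturation of the mouse oocyte was followed at the RNA level by comparing uninjected oocytes at the germinal vesicle (GV) stage with uninjected oocytes at metaphase of the second meiotic division (MII). The comparison holds 4 of the 8 libraries of the series, 2 titled GV and 2 titled MII, and takes every one of the 17384 genes listed in their tables, out of 17870 listed in any table. Of these genes, 1422 are listed for uninjected oocytes only. Both groups carry the label WT and received no injected RNA. They came from female ICR mice that were 6 weeks old, and the MII oocytes had matured from GV oocytes in culture. In both groups the zona pellucida, the glycoprotein coat of the egg, was taken off with pronase E, and 15 oocytes were pooled for each library. The labels speak of 3 samples in each group, and 2 are used here. Nothing in the labels says that the libraries of a stage came from separate animals, so p-values measure only the spread between these libraries, which may be technical.

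A fully grown GV oocyte rests in prophase of meiosis I and has largely shut down transcription. It lives on RNAs stored during growth, many of them held silent with short poly(A) tails. When meiosis resumes, some stored RNAs receive longer tails and are translated, while others lose their tails, mainly through the CCR4-NOT deadenylase and adaptors such as BTG4, and are degraded. Libraries were made with Smart-seq2, whose reverse transcription begins at an oligo(dT) primer, and therefore fewer molecules and shorter tails cannot be told apart in these values. Nor can a loss in all pooled oocytes be told apart from a larger loss in some of them.

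RNA levels are given as TPM (length-normalised transcript shares), which divide reads by gene length and by the library's total. They are relative values. The TPM of the 4 libraries were scaled by the median of ratios, so 0 on the log2 scale is close to the median gene, and "fell" and "rose" mean lower or higher relative to that gene. Of the 17384 genes, 13882 reached 1 TPM in at least 2 libraries and were tested with limma on log2(scaled TPM + 1). A gene was called lower or higher when its Benjamini-Hochberg adjusted p was under 0.05 and its log2 fold change was beyond 1 in either direction. It was said to have stayed within 2-fold when the 95% interval of its log2 fold change lay between -1 and 1. The remaining genes were not settled. Sequencing depth is not kept by TPM and is unknown here, so no counting error can be given.

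Maturation changed the RNA content in both directions. In MII oocytes 3436 genes were lower (24.8% of those tested) and 1802 were higher (13.0%), while 4012 stayed within 2-fold (28.9%) and 4632 were not settled. These percentages are the background for all counts below. Without a model, 2746 genes (19.8%) had a scaled TPM + 1 at least 2-fold lower in each MII library than in each GV library, and 1086 (7.82%) were at least 2-fold higher. The median gene had a log2 fold change of -0.02, and the quartiles were -1.01 and 0.69. Of the genes called lower, 628 were under 1 TPM in both MII libraries, so they entered the test only through their GV level. Every gene in the tables was above 0 in at least 3 of the 4 libraries, so none of them was at 0 in both MII libraries.

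The libraries of one stage were much closer to each other than to those of the other stage. Across genes, Pearson's r was 0.986 between the GV libraries and 0.982 between the MII libraries, and 0.821 to 0.833 between stages. A typical gene differed between replicates by 0.19 on the log2 scale in GV oocytes and by 0.18 in MII oocytes (median of absolute differences). All 16 oocyte markers fixed for the check were listed. Of 18 cumulus and granulosa cell markers 8 were listed, with a summed level of 37.1 and 37.4 scaled TPM in the GV libraries and 48.0 and 51.8 in the MII libraries, against 44300 to 48500 for the oocyte markers. Of these markers, those not listed included Amh, Fshr, Foxl2 and Cyp11a1, and those listed included Inha. Of the 8 listed 5 were tested, with 1 lower and 3 within 2-fold. Summed markers of theca and stroma, of blood and of endothelium were at most 2.98, 6.12 and 34.1 scaled TPM in any library.

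The scale matters for the direction of the rises. On their own scales, the deposited TPM and quantile normalization kept every called gene on its side of 0. The numbers of calls moved, with 3808 lower and 1165 higher genes on the deposited TPM and 2783 lower and 3131 higher genes after quantile normalization. The median of all genes shifted by -0.13 and 0.27. Relative to the shifted median, 1 named gene changed side: Bcl2l10, called higher, was at -0.0532 after quantile normalization. When the libraries were scaled to their mitochondrially encoded RNAs instead, the median shifted by -1.77, and 1700 of the 1802 higher genes lay below 0. All 3436 lower genes stayed below 0 on each of these scales. A rise below therefore means a rise relative to the median RNA. For single genes below, the fold change after quantile normalization is read relative to the shifted median, with the adjusted p of the main fit. A call lost there, or a gene under the fold limit there, refers to this shifted fold change.

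**Figure D1:**
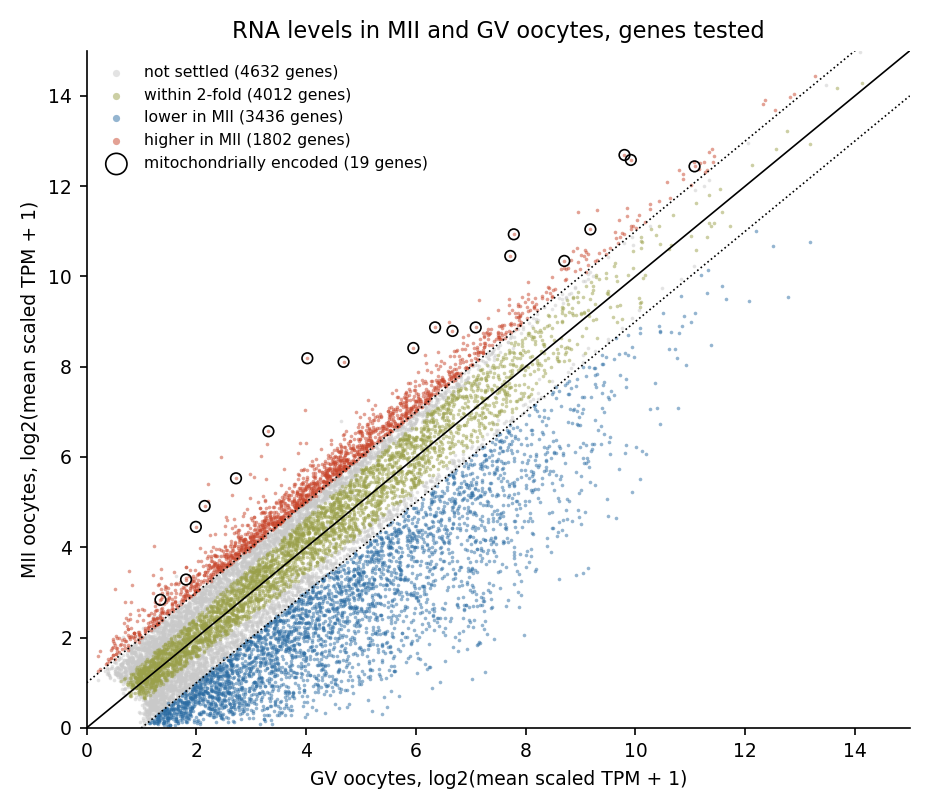
Mean scaled TPM of the 13882 genes tested in GV oocytes (x axis) and MII oocytes (y axis), both on log axes and as scaled TPM + 1, coloured by call, with mitochondrially encoded genes circled. The 3436 lower genes lie under the diagonal and the 1802 higher genes above it; on a scale set by the circled genes, 1700 of the higher genes would lie under it.

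The genes that fell made up a large part of the GV transcriptome and little of the MII transcriptome. They held 34.9% and 34.8% of the TPM in the GV libraries and 6.44% and 7.02% in the MII libraries. Genes that rose went from 19.3% and 19.5% to 43.8% and 43.4%, and genes within 2-fold stayed at 30.4% to 30.8% in all 4 libraries. Calls of a fall were also more frequent at higher GV levels. Of 2239 genes under 2 scaled TPM in GV oocytes 5.0% were called lower, against 21.3% of the 4641 genes from 2 to 10, 29.4% of the 4211 from 10 to 50, 38% of the 2005 from 50 to 200 and 44.3% of the 673 from 200 to 1000. In the 113 genes at 1000 or more, 33.6% fell and 26.5% rose. The pseudocount of 1 understates changes of genes near 1 TPM. With it, a gene under 1 scaled TPM in GV oocytes could not fall by more than 1 on the log2 scale. The GV level that sets these classes also enters the fold change. The low classes thus had less room for a call, and the part of this in the trend was not tested.

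The single largest fall among the genes chosen by the naming rule was that of Yif1a, a membrane protein of traffic between the endoplasmic reticulum and the Golgi (chromosome 19, 5088538 to 5092881), with 142 and 116 scaled TPM in GV oocytes and 1.93 and 0.336 in MII oocytes (log2 fold change -6.03, SE 0.37, adjusted p = 6.09e-05). Rpl19, a protein of the large ribosomal subunit (chromosome 11, 98026710 to 98030492), had 527 and 593 scaled TPM in GV oocytes and 10.4 and 11 in MII oocytes (log2 fold change -5.58, SE 0.11, adjusted p = 1.16e-05). The rule for this ranking took only genes with both MII libraries below both GV libraries. Fam162a, a mitochondrial protein, came next with 496 and 471 against 10.2 and 8.58 scaled TPM. Upp1, which splits uridine, had 165 and 177 against 2.48 and 3.31 and Ckb, the brain-type creatine kinase, 127 and 155 against 1.15 and 4.27. Falls of similar size were seen for the small-subunit mitochondrial ribosomal protein Mrps18c, the complex I subunit Ndufa9, the spliceosomal protein Snrpd2 and the ribosome biogenesis methyltransferase Emg1, with log2 fold changes from -5.5 to -5.21. The same ranking of 12 genes held Use1, of membrane traffic from the Golgi, and Ppie, a cyclophilin of the spliceosome.

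The rises were smaller on the log2 scale. Xaf1, an antagonist of the apoptosis inhibitor XIAP (chromosome 11, 72301629 to 72313733), went from 0.908 and 0.5 to 6.64 and 13.5 scaled TPM (log2 fold change 2.64, SE 0.35, adjusted p = 0.0011), from a level near the pseudocount. The most abundant gene of this ranking was Paip1, which binds the poly(A)-binding protein and promotes translation initiation (chromosome 13, 119428601 to 119458218). It had 521 and 472 scaled TPM in GV oocytes and 2860.3 and 2608 in MII oocytes (log2 fold change 2.46, SE 0.1, adjusted p = 1.72e-05). Kdelr2, the receptor that returns resident proteins from the Golgi to the endoplasmic reticulum, had 108 and 85 against 500.3 and 511, and Ric1, a part of the activator of RAB6, 14.9 and 12.8 against 78.7 and 77.6. In all of these genes the MII libraries lay above the GV libraries, which the naming rule required. Proteins that act on poly(A) tails appear in this ranking with Pan3 and Cpeb4, and chromatin proteins with Kdm6b and Wapl; they are described with their groups.

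The transcripts that fell and those that rose differed in length and in their 3′ ends. For 10985 tested protein-coding genes a representative transcript was taken from GENCODE M21 on GRCm38, the build of the files with an earlier annotation; the 3′ ends used in oocytes were not measured here. The median transcript length was 1826 bases in lower genes, 3053 in genes within 2-fold and 3897 in higher genes, and the median 3′ UTR was 429, 1045 and 1414 bases long. GC content ran the other way, at 52.6%, 49.0% and 46.0%. Falls took 54.8% of the 785 transcripts under 1000 bases, with a median log2 fold change of -1.26. Their share decreased through each longer class to 3.98% of the 1281 transcripts of 6000 bases or more, where the median was 0.64. Rises took 7.90% and 25.3% of these same classes. With loess trends on transcript length and GC content removed from each library, the balance of the calls turned, with 2358 of 13704 genes lower (17.2%), 2439 higher (17.8%) and 4688 within 2-fold (34.2%). TPM are divided by gene length, and any dependence of the libraries on length moves with this result; its part in the result was not tested.

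The cytoplasmic polyadenylation element (CPE), in the form TTTTAT or TTTTAAT, is the site by which CPEB proteins mark stored mRNAs for tail extension, and it acts near the polyadenylation signal AATAAA or ATTAAA. In the last 100 bases of the transcript, read on the sense strand, 31.5% of higher genes, 19.9% of genes within 2-fold and 9.76% of lower genes held a CPE, against 19.3% of all transcripts. A polyadenylation signal was held by 85.4%, 81.1% and 75.7%, and by 80.2% of all. These ends also differed in base composition, with a median A and T content of 69%, 66% and 59%. The reversed strings TATTTT and TAATTTT, which have the same bases and were chosen for comparison after the data were seen, occurred in 30.5%, 22.9% and 12% of the same groups, and in 20.7% of all. The CPE string and its reversal thus followed the groups to a similar degree over all lengths. Within each class of A and T content, the medians with and without the string lay further apart for the CPE. Under 55% A and T the median log2 fold change was -0.15 with a CPE and -0.76 without. For the reversed string it was -0.50 and -0.74. From 70% to 75% the medians were 0.57 and 0.34 for the CPE and 0.44 and 0.39 for the reversed string. Among transcripts under 1000 bases the median log2 fold change was 0.45 with a CPE and -1.35 without, and -0.54 with the reversed string and -1.32 without. Among those from 1000 to 2000 bases it was 0.23 with a CPE and -0.93 without, and -0.06 and -0.90 for the reversed string. In transcripts of 6000 bases or more the median was 0.74 with a CPE and 0.64 with the reversed string. In the whole 3′ UTR the Pumilio string TGTANATA was found in 37.4% of higher and 12% of lower genes (24.3% of all) and the AU-rich string TATTTAT in 39.9% and 13.8% (27.3% of all), where longer 3′ UTRs have more room for any string. A string is a description of the letters and does not show that a protein binds there.

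**Figure D2:**
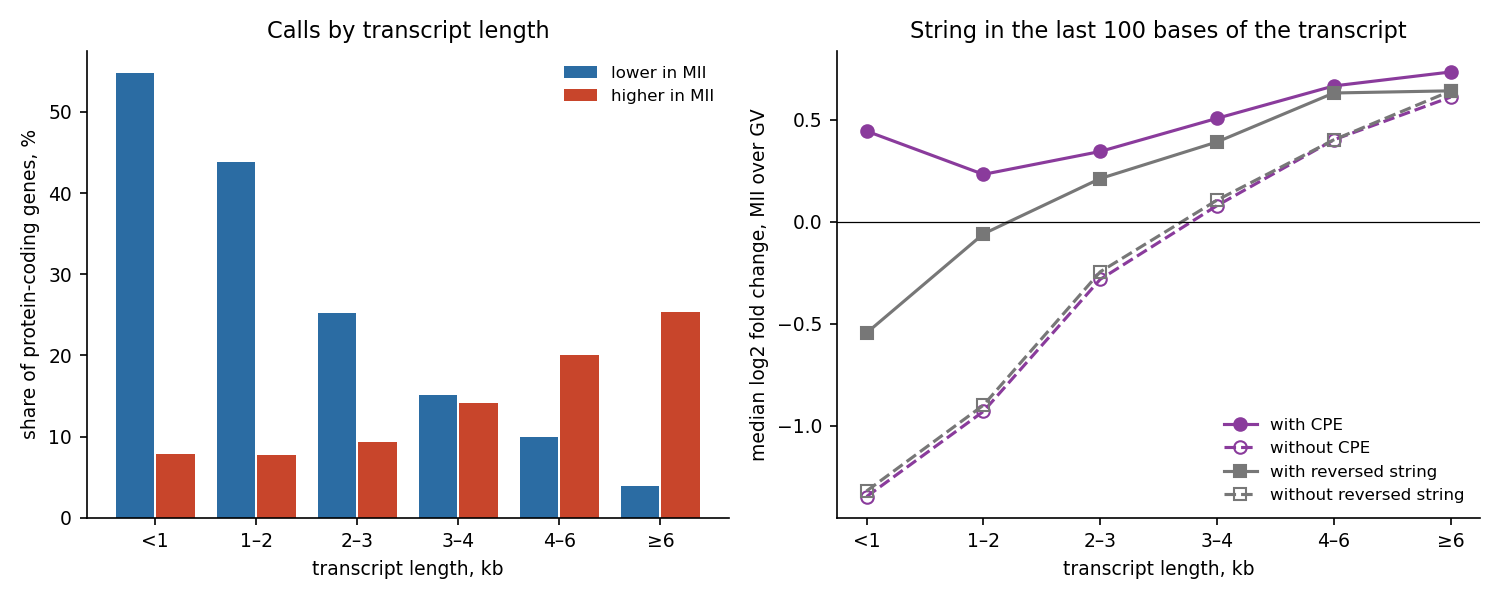
Left, the share of 10985 protein-coding genes called lower or higher (y axis, %) by length of the representative transcript (x axis, kb); right, the median log2 fold change of MII over GV oocytes, relative to the median gene, for genes with and without a CPE or its reversed string in the last 100 bases. The share of lower genes decreases from 54.8% to 3.98% with length, and transcripts with a CPE lie above those without in each length class, as do those with the reversed string, by smaller differences, in the classes under 6000 bases; on a scale set by mitochondrial RNA 1700 of the 1802 higher genes would be below 0.

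The ends of 12 transcripts are printed below because they belong to the largest rises and falls among members of the gene groups described here. They are the 6 called rises and the 6 called falls of greatest size with at least 10 scaled TPM and a polyadenylation signal near the end. Capitals mark the CPE and the polyadenylation signal, which share letters in Pan3 and Nfya. The windows are at chr5:147548469-147548498 (plus strand) for Pan3, chr11:69398520-69398549 (minus) for Kdm6b, chr14:34747942-34747971 (plus) for Wapl, chr17:48386892-48386921 (minus) for Nfya, chr11:20062313-20062342 (minus) for Actr2 and chr1:131872848-131872877 (plus) for Rab29. Those of the falls are at chr11:98030437-98030466 (plus) for Rpl19, chr5:100804416-100804445 (plus) for Mrps18c, chr17:24722075-24722104 (minus) for Ndufb10, chr8:83571581-83571610 (plus) for Ndufb7, chr11:29545855-29545884 (minus) for Rps27a and chr2:38588045-38588074 (minus) for Psmb7. All lie in the last exon and, apart from the first bases of the Rps27a window, in the 3′ UTR.
Pan3: ttTTTTAATAAAgaattgcagaAATAAAct
Kdm6b: tgtgagaatattATTAAAAATAAAagcagg
Wapl: gtaaataattttaactcaAATAAAattgat
Nfya: ttTTTTAATAAAtttataaaaatactagaa
Actr2: ctTTTTAATtaagaaAATAAAtaagatttt
Rab29: gatgagtttatgaaaagaATTAAAagtgag
Rpl19: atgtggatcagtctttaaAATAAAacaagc
Mrps18c: atttgtgaagttcctgccAATAAAcctcta
Ndufb10: cttcattccactgctaaaAATAAAgtcaag
Ndufb7: ctgtggacctatcagtgaAATAAAagcttt
Rps27a: agtagttgtgtatgcgttAATAAAaagaag
Psmb7: gctcaATTAAAATAAATAAATAAAaagaca

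A CPE stood in the last 100 bases of Pan3, Nfya and Actr2 and in none of the other 9. The 6 transcripts that fell were 623 to 1160 bases long, with 3′ UTRs of 34 to 141 bases, and the 6 that rose were 1226 to 6654 bases long, with 3′ UTRs of 307 to 2400 bases. Length and 3′ end therefore moved together in these examples, as they did across all genes.

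Groups of genes are described next by how many of their tested members fell, rose or stayed within 2-fold, and by their median log2 fold change beside that of all genes (-0.02). No group was tested as a whole, and the shares are read against 24.8% lower, 13.0% higher and 28.9% within 2-fold. Because length and GC content moved with the result, counts or medians are also given with trends on both removed from each library where they change the picture. Counts in that setting are read against its own shares, 17.2% lower, 17.8% higher and 34.2% within 2-fold.

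**Figure D3:**
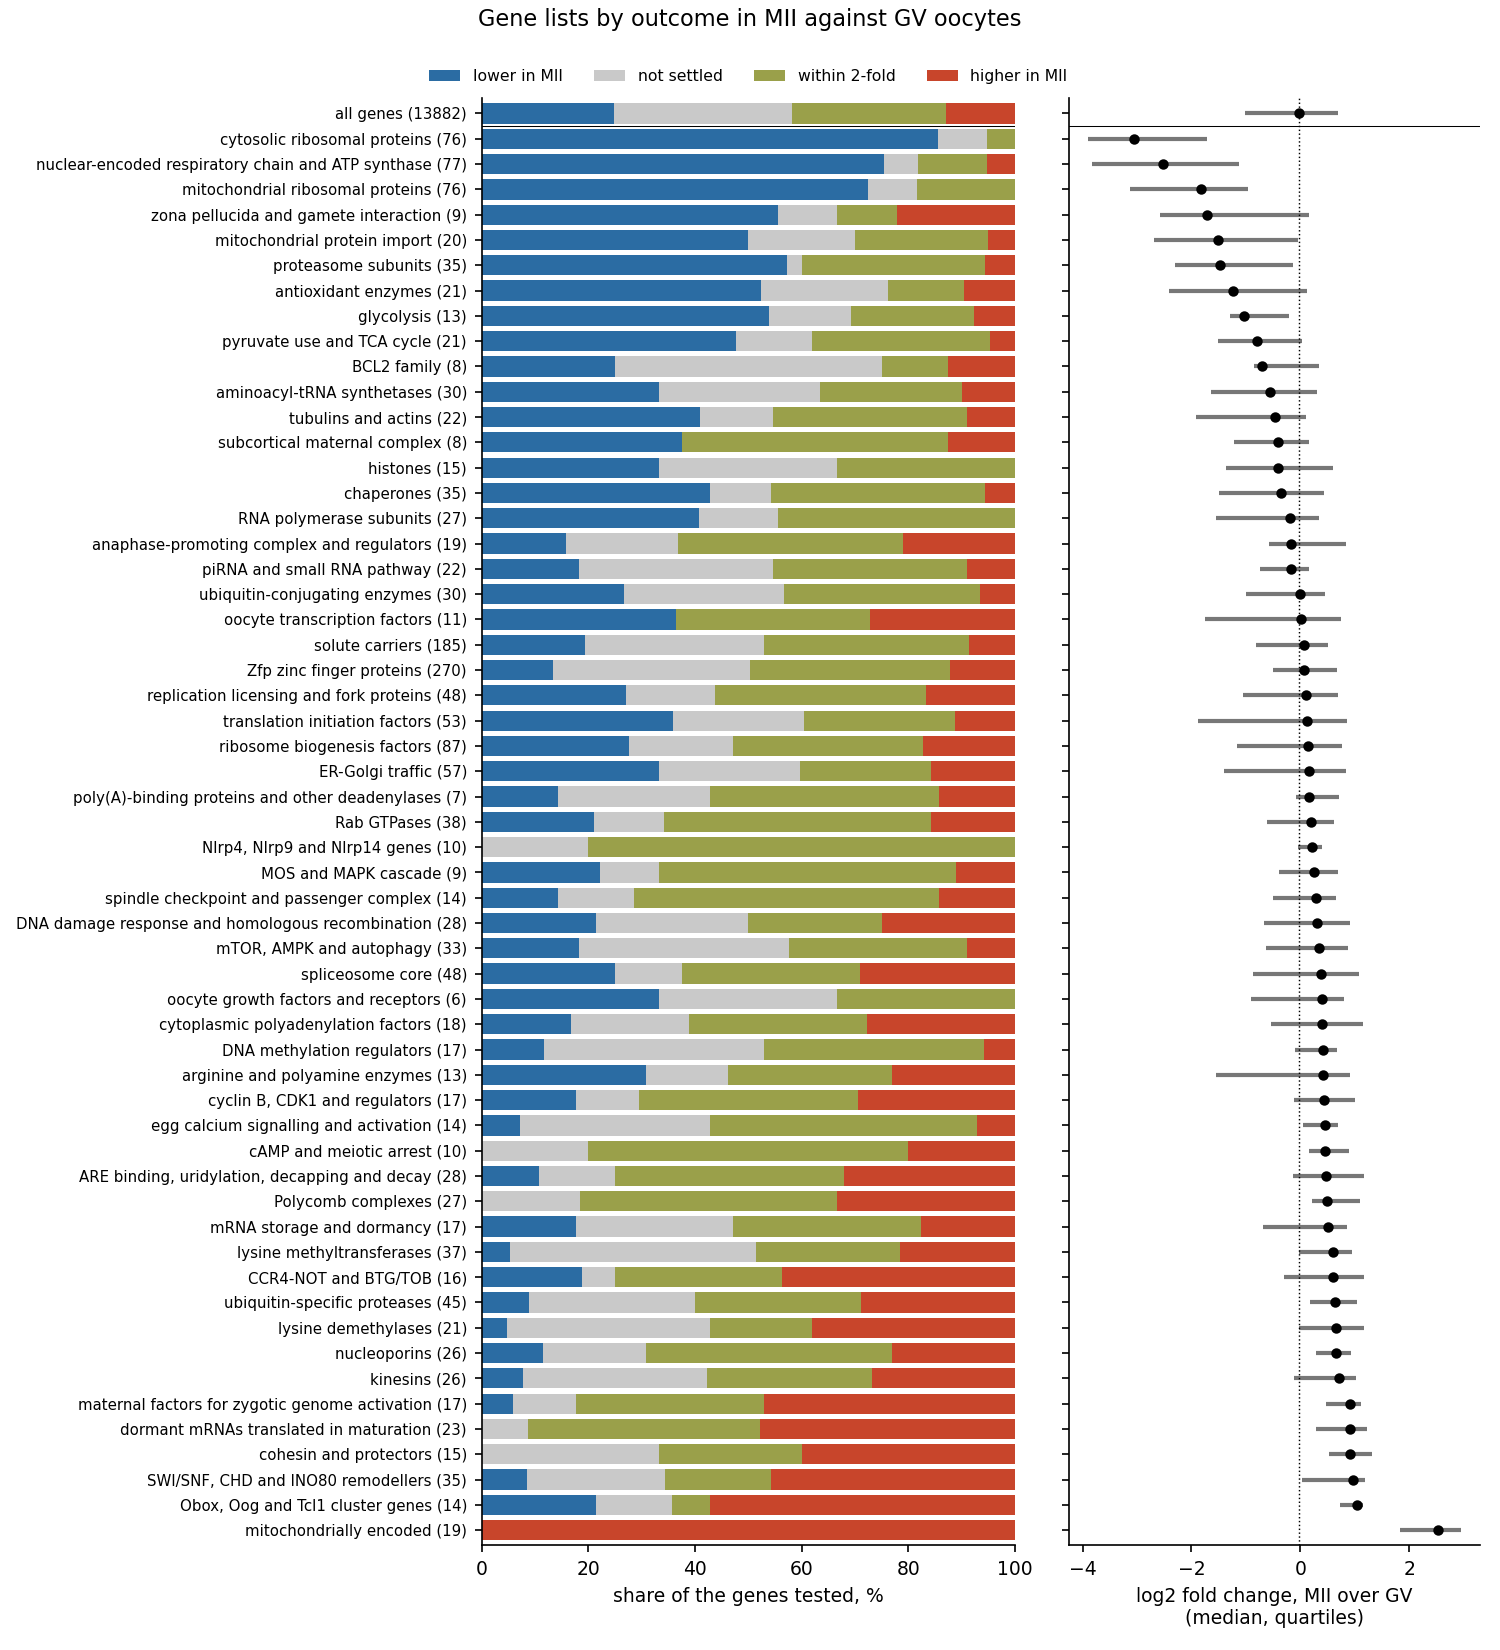
Gene groups with at least 6 tested members, with the share of members lower, higher, within 2-fold or not settled (left) and the median and quartiles of their log2 fold changes, relative to the median gene (right). Ribosomal proteins and the nuclear-encoded respiratory chain lie lowest, and the mitochondrially encoded genes highest; on a scale set by mitochondrial RNA most groups to the right of 0 would move to its left.

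Most genes for proteins of the cytosolic ribosome fell. Of 76 tested cytosolic ribosomal protein genes 65 were lower and none was higher, with a median of -3.05 on the log2 scale. Both subunits took part, with 39 of 45 genes of the large subunit (median -2.96) and 26 of 31 of the small subunit (median -3.13). Rpl5, which assembles with the 5S rRNA, had 726 and 734 scaled TPM in GV oocytes and 69.5 and 90.2 in MII oocytes (log2 fold change -3.19, SE 0.14, adjusted p = 2.11e-05). Rps27a, made as a fusion with ubiquitin, had 139 and 162 scaled TPM in GV oocytes and 4.24 and 2.89 in MII oocytes (log2 fold change -5.06, SE 0.18, adjusted p = 1.53e-05). Neither gene's libraries overlapped between the stages. The group did not move as one, however. The members that stayed within 2-fold were Rplp2 (144 and 143 against 98 and 86.4 scaled TPM), Rpl22, Rpl13a and Rps28 (42.8 and 42.6 against 52.3 and 44.4), and Rpl17, the most abundant member over the 4 libraries, was not settled at 688 and 755 against 398 and 381. Ribosomal protein genes have many near-identical copies in the genome, the authors removed reads that mapped with a quality under 10, and so single members are uncertain. With length and GC trends removed the median was -2.21, with 53 lower and 3 higher genes.

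Mitochondrial ribosomes showed the same pattern with smaller falls. Of 76 tested genes 55 fell and none rose, with a median of -1.82 (-1.13 with length and GC trends removed, when 44 were lower and 4 higher). The large subunit had 36 of 47 lower (median -1.96) and the small subunit 19 of 29 (median -1.67). Mrps18c (chromosome 5, 100798627 to 100804471) had 152 and 127 scaled TPM in GV oocytes and 0.706 and 4.57 in MII oocytes (log2 fold change -5.5, SE 0.51, adjusted p = 0.000276), and Mrps12, a protein of the decoding centre, had 150.1 and 138 against 11.1 and 18.6. The MII libraries lay far below in both. Mrpl18 stayed within 2-fold at 328 and 342 against 476 and 485, 1 of 14 members that did. Among 87 tested ribosome biogenesis factors 24 fell and 15 rose, with a median of 0.14; 31 stayed within 2-fold, 20 without the first MII library.

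Oxidative phosphorylation showed opposite changes for its 2 genomes. Of 77 nuclear-encoded subunits of the respiratory chain and ATP synthase 58 fell and 4 rose, with a median of -2.53 (-1.77 with length and GC trends removed). All 19 mitochondrially encoded genes listed rose, with a median of 2.53 (2.01 with the trends removed). Together they held 0.625% and 0.651% of all TPM at the GV stage and 2.71% and 2.6% at the MII stage. The mRNAs among them are transcribed and given short tails within the organelle, so the opposite directions hold for what an oligo(dT) primer captures. Since both sets were measured in the same libraries, the difference between them does not depend on a scaling factor per library. Quantile normalization uses no such factor and can change it. The direction of each set is relative to the median gene. On a scale set by the mitochondrially encoded genes, their own rise cannot be read.

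Among the nuclear genes, complex I, the NADH dehydrogenase, had 28 of 37 subunits lower (median -2.92), complex III 8 of 9 (median -2.53), complex IV, cytochrome oxidase, 6 of 11 (median -1.43) and ATP synthase 14 of 16 (median -2.84). Ndufa9 (chromosome 6, 126821721 to 126849136) had 409 and 366 scaled TPM in GV oocytes and 7.52 and 10.04 in MII oocytes (log2 fold change -5.32, SE 0.15, adjusted p = 1.16e-05). Ndufb10 (chromosome 17, 24722060 to 24724478) had 161 and 131 scaled TPM in GV oocytes and 1.37 and 6.38 in MII oocytes (log2 fold change -5.12, SE 0.5, adjusted p = 0.000316), with a wide spread between the MII libraries. Atp5j2, of the membrane part of ATP synthase, had 215 and 183 against 5.33 and 5.61, and the catalytic subunit Atp5b stayed within 2-fold at 164 and 199.8 against 209.7 and 209. In complex II, succinate dehydrogenase, Sdhb and Sdhd fell (-3.98 and -3.2 on the log2 scale) and Sdha and Sdhc stayed within 2-fold (0.34 and -0.45). The 4 rises were Ndufa4 (338 and 292 against 855 and 664 scaled TPM, log2 fold change 1.26, SE 0.14, adjusted p = 0.000616), Ndufa10 (1.24), Cox8a (1.2) and Uqcrc2 (1.11). Of these, Ndufa4, Cox8a and Uqcrc2 were under the fold limit after quantile normalization. The 10 members within 2-fold became 6 without the second MII library. Subunits of a single complex were thus at very different relative levels in MII oocytes.

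Of the mitochondrially encoded genes, the 11 mRNAs had a median log2 fold change of 2.46, the 6 tRNAs 3.28 and the 2 rRNAs 1.5. The tRNA genes had a median length of 69 bases, and some were low in GV oocytes, with mt-Tl1 at 13.7 and 4.17 scaled TPM. Whether reads on tRNA genes came from longer transcripts that span them was not tested. mt-Nd1, a membrane subunit of complex I (chromosome M, 2751 to 3707 of the mitochondrial genome), had 836 and 947 scaled TPM in GV oocytes and 6332 and 6890.1 in MII oocytes (log2 fold change 2.89, SE 0.1, adjusted p = 1.42e-05). mt-Cytb, cytochrome b, had 911 and 1021 against 6051 and 6199, and mt-Co1, the catalytic subunit of cytochrome oxidase, 562 and 596 against 2052 and 2165. The large ribosomal RNA mt-Rnr2 changed least, at 2192 and 2129 against 5982 and 5121 (log2 fold change 1.36, SE 0.1, adjusted p = 0.000135), and was under the fold limit after quantile normalization. No GV library reached the level of an MII library for any of these 4 genes.

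Import of proteins into mitochondria depends on the TOM and TIM translocases. Of 20 tested genes 10 fell and 1 rose, with a median of -1.51 (-0.82 with length and GC trends removed, when 9 were lower and 5 higher); 5 stayed within 2-fold, 3 without the first MII library. Timm13, a chaperone of the intermembrane space, had 129 and 102 scaled TPM in GV oocytes and 2.22 and 4.63 in MII oocytes (log2 fold change -4.76, SE 0.28, adjusted p = 5.68e-05), and the receptor Tomm20 had 13.8 and 15 against 1.05 and 2.1. The rise was that of Timm21 (35.4 and 34.8 against 76.8 and 80.2, log2 fold change 1.14, SE 0.1, adjusted p = 0.000251), which links the inner membrane translocase to the respiratory chain.

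Energy metabolism leaned downward with exceptions. Of 13 tested glycolytic genes 7 fell and 1 rose (median -1.03), but with length and GC trends removed 4 were lower and 3 higher (median -0.09). Tpi1, triose phosphate isomerase, had 55.6 and 58.8 against 3.92 and 3.34 scaled TPM (log2 fold change -3.65, SE 0.15, adjusted p = 1.89e-05), and pyruvate kinase Pkm 132 and 138 against 28.5 and 36.4 (log2 fold change -2.03, SE 0.14, adjusted p = 9.51e-05). Hexokinase Hk2 rose from a low level, 2.07 and 1.52 against 7.13 and 7.91 (log2 fold change 1.61, SE 0.22, adjusted p = 0.00117). Aldoa, aldolase, was called lower (log2 fold change -1.2, SE 0.12, adjusted p = 0.000391) but was at 0.045 with the trends removed. Gapdh, a common reference gene, stayed within 2-fold at a low level, 10.4 and 13.5 against 9.41 and 11.1, with a log2 fold change of -0.2 (interval -0.67 to 0.27) that turned to 1.03 with the trends removed. Ldhb, the lactate dehydrogenase of oocytes and one of the most abundant RNAs, was not settled, with 11994 and 10624 against 20284 and 18504 and an interval of 0.51 to 1.05 on the log2 scale. In pyruvate use and the TCA cycle 10 of 21 genes fell and 1 rose (median -0.80), led by mitochondrial malate dehydrogenase Mdh2 with 213 and 184 against 8.74 and 12.8 (log2 fold change -4.1, SE 0.19, adjusted p = 2.58e-05). Antioxidant enzymes had 11 of 21 lower and 2 higher (median -1.23, and -0.94 with the trends removed, when 9 were lower and 4 higher). The lipid peroxidase Gpx4 had 163 and 157 against 10.5 and 5.98 (log2 fold change -4.17, SE 0.24, adjusted p = 4.83e-05), while the peroxiredoxins split, with Prdx2 falling (747 and 805 against 149 and 181) and Prdx1 rising (987 and 941 against 2064 and 2147, log2 fold change 1.13, SE 0.08, adjusted p = 0.000116; under the fold limit after quantile normalization). In 13 arginine and polyamine genes 4 fell and 3 rose, and Arg2, mitochondrial arginase, had 752 and 702 scaled TPM in GV oocytes and 25.1 and 24.8 in MII oocytes (log2 fold change -4.81, SE 0.09, adjusted p = 1.16e-05); 28.1% of its exonic bases are shared with another gene, and counting did not use strand.

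Protein degradation machinery was uneven. Of 35 tested proteasome subunits 20 fell, 2 rose and 12 stayed within 2-fold (median -1.48, and -0.58 with length and GC trends removed, when 15 were lower and 6 higher). The catalytic beta ring had 6 of 8 lower (median -2.98) and the ATPase ring 5 of 6 (median -2.24), while the alpha ring had 2 of 7 (median -0.48) and the non-ATPase subunits of the cap 7 of 14 (median -0.66). Psmb7, the trypsin-like subunit (chromosome 2, 38588036 to 38644087), had 84.3 and 99.4 scaled TPM in GV oocytes and 1.69 and 1.9 in MII oocytes (log2 fold change -5.05, SE 0.16, adjusted p = 1.26e-05), and Psmb1 had 275 and 237 against 10.8 and 10.8 (log2 fold change -4.44, SE 0.12, adjusted p = 1.16e-05). Psmb2, the most abundant member in GV oocytes, stayed within 2-fold at 1138 and 991 against 717 and 754, as did Psma7, the most abundant in MII oocytes, at 824 and 737 against 1234 and 1187. Psmd1, the largest scaffold of the cap, rose with 41 and 37.8 against 95.5 and 89.4 (log2 fold change 1.21, SE 0.11, adjusted p = 0.000232). Ubiquitin-specific proteases had 4 of 45 lower and 13 higher (median 0.64), but 4 lower and 6 higher with the trends removed (median 0.26). In 30 ubiquitin-conjugating enzymes 8 fell and 2 rose (8 and 5 with the trends removed).

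Other multi-protein machines are described by their parts. Of 48 tested spliceosome genes 12 fell and 14 rose (median 0.38). Sm proteins form 1 ring, yet of 7 genes Snrpd2 and Snrpb fell and Snrpg, Snrpf, Snrpe and Snrpd3 rose. Snrpd2 (chromosome 7, 19149722 to 19153542) had 157 and 130.1 scaled TPM in GV oocytes and 1.57 and 3.82 in MII oocytes (log2 fold change -5.36, SE 0.3, adjusted p = 4.75e-05), and Snrpg, of the same ring (chromosome 6, 86371304 to 86379328), had 111 and 119.7 scaled TPM in GV oocytes and 408 and 400.1 in MII oocytes (log2 fold change 1.8, SE 0.09, adjusted p = 3.16e-05). Snrpe had 226 and 238 against 671 and 632; Snrpf shares 85.4% of its exonic bases with another gene. Among SF3 proteins, which recognise the branch point, none fell, 1 rose and 6 of 9 stayed within 2-fold, among them Sf3a1 at 45.7 and 57.9 against 66 and 66.5. Translation initiation factors had 19 of 53 lower and 6 higher (median 0.12), a number of rises that was 12 without the second MII library and 11 with length and GC trends removed. In them the EIF3 scaffold had 8 of 14 lower (median -1.59), led by Eif3g with 269 and 287 against 21 and 16.8 (log2 fold change -3.82, SE 0.13, adjusted p = 1.42e-05). EIF4 factors had 4 of 15 lower and a median of 0.51. The replication machinery had 13 of 48 lower (27.1%) and 8 higher (16.7%), near the 24.8% and 13.0% of all genes (median 0.10). Of 4 tested members of the GINS complex 3 fell and 1 was not settled, at 0.72 on the log2 scale. Gins4 had 238 and 203 against 12.8 and 13.5 (log2 fold change -3.96, SE 0.12, adjusted p = 1.26e-05), and Gins2, also lower, shares 67.3% of its exonic bases with another gene. The single-strand binding subunit Rpa2 had 139 and 125 against 5.13 and 3.34 (log2 fold change -4.69, SE 0.19, adjusted p = 1.95e-05). MCM helicase genes had 6 of 9 within 2-fold and Orc6, of the origin recognition complex, rose with 204 and 209 against 671 and 645 (log2 fold change 1.67, SE 0.08, adjusted p = 3.14e-05). Chaperones had 15 of 35 lower and 2 higher (median -0.36, and 0.00 with length and GC trends removed, when 11 were lower and 5 higher), with Hspa8 at 612 and 612 against 111 and 114 (log2 fold change -2.43, SE 0.08, adjusted p = 1.37e-05). RNA polymerase subunits had 11 of 27 lower and none higher (9 and 3 with the trends removed).

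**Figure D4:**
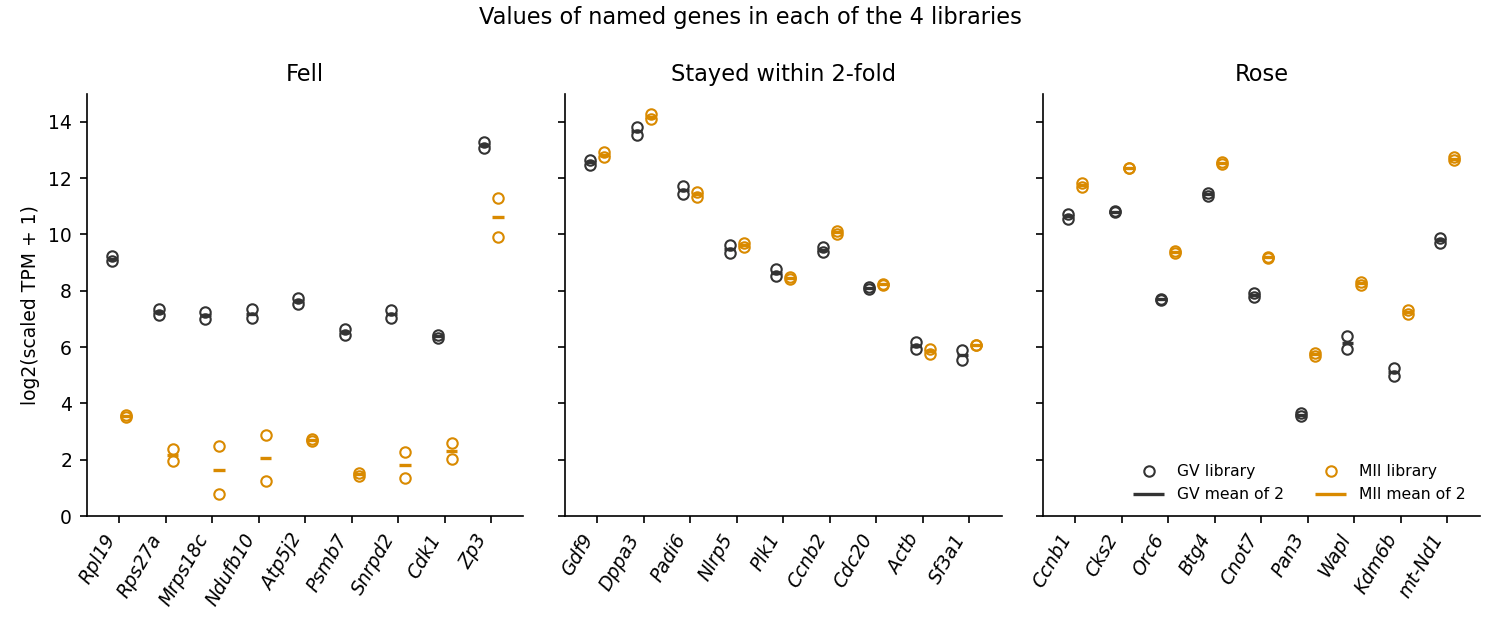
Log2(scaled TPM + 1) of 27 genes (y axis) in each library, 9 that fell, 9 that stayed within 2-fold and 9 that rose relative to the median gene, chosen after their values were seen to stand for the groups; circles are single libraries of GV (black) and MII (orange) oocytes and bars the means of 2. The MII libraries lie below the GV libraries in all of the first panel, with wider MII spreads for Zp3, Mrps18c and Ndufb10, and above them in all of the third; on a scale set by mitochondrial RNA 1700 of the 1802 higher genes would be below 0.

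Oocyte-specific functions were divided between loss and persistence. In the zona pellucida and gamete interaction group 5 of 9 tested genes fell and 2 rose (median -1.72, and -0.84 with length and GC trends removed). Zp3, a structural protein of the zona (chromosome 5, 135980099 to 135988624), had 10006 and 8599.9 scaled TPM in GV oocytes and 953 and 2526 in MII oocytes (log2 fold change -2.58, SE 0.42, adjusted p = 0.00253). Zp2, the protein cleaved after fertilization, had 2063 and 2077 against 301 and 708 (log2 fold change -2.16, SE 0.36, adjusted p = 0.00294) and Zp1, the cross-linker, 2893 and 2143 against 569 and 1007 (log2 fold change -1.72, SE 0.28, adjusted p = 0.00257; this call was lost with the trends removed). For all 3 genes the MII libraries differed widely from each other, but both lay below the GV libraries. Cd9, a tetraspanin needed for fusion with sperm, had 365 and 346 against 31.1 and 52.6 (log2 fold change -3.1, SE 0.23, adjusted p = 0.000125), and Izumo1r (Juno), the receptor for sperm IZUMO1, 261 and 312 against 29.7 and 46.1 (log2 fold change -2.91, SE 0.21, adjusted p = 0.000114). Astl, the cortical granule protease that cuts ZP2, stayed within 2-fold at 577 and 457 against 603 and 545. Oosp1, a secreted oocyte protein, was one of the rises, with 2070.4 and 2589 against 5832 and 5785 (log2 fold change 1.33, SE 0.12, adjusted p = 0.000272), a call that was lost after quantile normalization.

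Signals from the oocyte to its cumulus cells showed the same division. Gdf9 (chromosome 11, 53431023 to 53437904) stayed within 2-fold, with 6435 and 5707 scaled TPM in GV oocytes and 7684 and 6891 in MII oocytes and an interval of 0.0 to 0.53 on the log2 scale. Bmp15, its partner, also stayed, with 1887 and 2496 against 3257 and 3063 and an interval of 0.19 to 0.89. Fgf8, which acts with these factors on cumulus glycolysis, fell with 391 and 466 against 26.7 and 20.8 (log2 fold change -4.12, SE 0.15, adjusted p = 1.56e-05). A list of transcription factors of oocyte growth, which also holds the PIWI cofactor Gtsf1, had 4 of 11 genes lower and 3 higher. Gtsf1 was one of the lower genes and is described with the piRNA pathway, and the other lower genes were transcription factors. Figla, which activates the zona genes, had 113 and 134 against 8.91 and 9.29 (log2 fold change -3.62, SE 0.13, adjusted p = 1.53e-05), Lhx8 165 and 176 against 42.4 and 54.5 (log2 fold change -1.8, SE 0.14, adjusted p = 0.000142) and Nobox 1492 and 1310.2 against 415 and 456 (log2 fold change -1.68, SE 0.1, adjusted p = 6.22e-05; lost with length and GC trends removed). Sall4, a zinc finger protein needed for oocyte maturation, rose with 398 and 312 against 1004 and 1015 (log2 fold change 1.52, SE 0.13, adjusted p = 0.000191).

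Many stores for early development stayed within 2-fold. Of the 10 genes of the Nlrp4, Nlrp9 and Nlrp14 families none was called in either direction and 8 stayed within 2-fold, with log2 fold changes from -0.29 to 0.85. Nlrp14 had 2921 and 2598 against 2353 and 2333 and Nlrp4f 946 and 915 against 1029 and 1048. In the subcortical maternal complex, a structure under the egg membrane that the first cleavages need, 3 of 8 genes fell, 1 rose and 4 stayed within 2-fold, with 1 lower with length and GC trends removed. Nlrp5 (789 and 641 against 830.1 and 749), Padi6 (2769.7 and 3378 against 2579 and 2916) and Ooep (1000.1 and 1203 against 705 and 682) stayed within 2-fold. Tle6 (888 and 916 against 330.4 and 304) and Khdc3 (339 and 384 against 73.8 and 111, with 38.5% of its exonic bases shared with another gene) were called lower, and both calls were lost with the trends removed. Nlrp2 fell with 227 and 207 against 109 and 88.2 (log2 fold change -1.13, SE 0.13, adjusted p = 0.000594) and remained lower with the trends removed, but was at -0.95 without the second MII library. Zbed3 rose from 8639 and 11059 to 22048 and 22471, a call lost after quantile normalization and, at 0.99, without the first GV library. Dppa3 (Stella), which protects maternal DNA methylation, stayed at 14274 and 11741 against 17295 and 19805 (interval 0.19 to 0.84). Elobl, an elongin B-like gene and the most abundant RNA in GV oocytes, stayed at 17485 and 18224 against 18537 and 21641 (interval -0.11 to 0.44). Members of one complex were thus found on both sides of the median gene. Genes of the Obox, Oog and Tcl1 clusters had 8 of 14 higher and 3 lower (median 1.04, and 1.49 with the trends removed). Tcl1 had 7753 and 6756 against 16043 and 16173 (log2 fold change 1.15, SE 0.1, adjusted p = 0.000241) and the homeobox gene Obox5 1255 and 1206 against 2769.8 and 2982 (log2 fold change 1.22, SE 0.09, adjusted p = 0.000102), both under the fold limit after quantile normalization, while Oog4 fell with 1708 and 1823 against 425 and 432 (log2 fold change -2.04, SE 0.08, adjusted p = 1.87e-05). These clusters hold close copies, so single members are uncertain.

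Most genes at the core of the meiotic cell cycle stayed or rose, but the RNA of its kinase fell. Of 17 genes of cyclin B, CDK1 and their regulators 7 stayed within 2-fold, 5 rose and 3 fell. Cdk1, the kinase that drives entry into metaphase (chromosome 10, 69335146 to 69352938), had 85 and 79.5 scaled TPM in GV oocytes and 5.02 and 3.12 in MII oocytes (log2 fold change -4.06, SE 0.21, adjusted p = 3.35e-05). Its partner Ccnb1, cyclin B1, rose with 1671 and 1511 against 3245 and 3595 (log2 fold change 1.1, SE 0.1, adjusted p = 0.000242), and Ccnb2 stayed within 2-fold with 746 and 657 against 1044 and 1105 (interval 0.38 to 0.86). The CDK-binding proteins Cks2 (chromosome 13, 51645232 to 51650660) and Cks1b had 1798 and 1762 against 5254 and 5248 (log2 fold change 1.56, SE 0.08, adjusted p = 3.65e-05) and 846 and 738 against 2174 and 1907 (log2 fold change 1.36, SE 0.11, adjusted p = 0.000165). Within the same kinase complex, then, the RNA of the catalytic subunit fell and those of the partners did not. Ccnb1, Cks2 and Cks1b were under the fold limit after quantile normalization.

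The MOS and MAPK cascade had 2 of 9 genes lower, 1 higher and 5 within 2-fold (none lower and 3 higher with length and GC trends removed). Mos, which starts the MAPK cascade of metaphase arrest (chromosome 4, 3870657 to 3872105), stayed within 2-fold at 1589 and 1687 against 2638 and 2628 (interval 0.48 to 0.89). Wee2, the kinase that inhibits CDK1 in prophase arrest, also stayed, at 452 and 390.0 against 579 and 552. In the cAMP pathway of prophase arrest none of 10 genes fell, and the receptor Gpr3, which keeps the oocyte in arrest, had 70.4 and 64.6 against 72.1 and 71.4. The anaphase-promoting complex and its regulators had 3 of 19 lower and 4 higher (1 and 3 with the trends removed). Its activators differed, with Cdc20, the activator in anaphase, at 281 and 268 against 297 and 303 and Fzr1, the activator in prophase arrest, falling from 54.2 and 70.03 to 13.3 and 16.7 (log2 fold change -1.97, SE 0.18, adjusted p = 0.000246). Securin, Pttg1, which the complex destroys, rose with 5808 and 4718 against 15737 and 14825 (log2 fold change 1.54, SE 0.12, adjusted p = 0.000157; lost after quantile normalization) and was the eighth most abundant RNA in MII oocytes.

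Of the spindle checkpoint and chromosomal passenger complex 8 of 14 stayed within 2-fold, and 5 did without the first MII library. Bub1b was at 540.3 and 553 against 918 and 861 and Plk1, a kinase of the spindle, at 433 and 364 against 342 and 358. Mad2l1, the checkpoint inhibitor of Cdc20, rose with 200.5 and 178 against 453 and 471 (log2 fold change 1.28, SE 0.1, adjusted p = 0.000125) and Birc5, survivin, fell with 954 and 912 against 424 and 407 (log2 fold change -1.17, SE 0.08, adjusted p = 0.000103), and both calls were lost with length and GC trends removed. Cohesin and its protectors, which hold sister chromatids together, had 6 of 15 higher and none lower (median 0.92, and 1 of 15 higher with the trends removed). Wapl, which releases cohesin (chromosome 14, 34673928 to 34747983), had 82.7 and 59.5 scaled TPM in GV oocytes and 319 and 295 in MII oocytes (log2 fold change 2.11, SE 0.16, adjusted p = 0.000141), and Smc3, a subunit of the ring, 162 and 156 against 468 and 439.8 (log2 fold change 1.51, SE 0.09, adjusted p = 5.37e-05; lost with the trends removed). Of 23 dormant mRNAs known to be translated in maturation 11 rose, none fell and 10 stayed within 2-fold (median 0.92, and 0.94 with the trends removed). This list is made of genes such as Ccnb1, Mos, Btg4 and Orc6, some of which also stand in other groups.

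Factors that act on tails and on mRNA decay moved in both directions. Of 16 genes of CCR4-NOT and the BTG/TOB adaptors 7 rose and 3 fell (median 0.60), and 4 were higher and 2 lower with length and GC trends removed (median 0.40). Btg4 (chromosome 9, 51060901 to 51119875), the adaptor that brings the deadenylase to maternal mRNAs, had 2655 and 2812 scaled TPM in GV oocytes and 5853 and 6059 in MII oocytes (log2 fold change 1.12, SE 0.09, adjusted p = 0.000134; lost after quantile normalization). Cnot7, a catalytic subunit, had 241 and 219.7 against 590.0 and 578 (log2 fold change 1.34, SE 0.09, adjusted p = 8.58e-05), and Cnot6l, another catalytic subunit, 31.2 and 30.01 against 97.1 and 85.1 (log2 fold change 1.54, SE 0.12, adjusted p = 0.000128; lost with the trends removed). The adaptor Tob1 fell with 20.8 and 23.4 against 2.92 and 5.13 (log2 fold change -2.24, SE 0.25, adjusted p = 0.000542). Pan3, of the second deadenylase, rose with 11.5 and 10.6 against 54.1 and 50.9 (log2 fold change 2.15, SE 0.13, adjusted p = 5.81e-05). The decapping cofactor Dcp1a had 131 and 145 against 355 and 340.4 (log2 fold change 1.33, SE 0.09, adjusted p = 0.000104), one of 9 rises against 3 falls in 28 genes of uridylation, decapping and decay (5 and 2 with the trends removed); the Dcp1a call was lost with the trends removed. Poly(A)-binding proteins of oocytes differed, with Pabpn1l within 2-fold at 2697 and 2645 against 2319 and 2091 (interval -0.5 to -0.06) and Pabpc1l lower at 120.5 and 127 against 38.7 and 39.3 (log2 fold change -1.64, SE 0.1, adjusted p = 6.05e-05; lost with the trends removed).

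Cytoplasmic polyadenylation factors had 5 of 18 higher and 3 lower (3 and 4 with length and GC trends removed). Cpeb1, which binds the CPE in GV oocytes, fell with 310.3 and 330.2 against 119 and 142 (log2 fold change -1.29, SE 0.11, adjusted p = 0.00022), while its paralogue Cpeb4 rose with 7.12 and 6.63 against 32.9 and 32.9 (log2 fold change 2.11, SE 0.14, adjusted p = 8.51e-05). Dazl, which binds stored mRNAs and promotes their translation, had 386 and 453 against 978 and 971 (log2 fold change 1.22, SE 0.1, adjusted p = 0.000189; lost in both the quantile and the length and GC alternatives). Cpsf4l, related to a subunit of the cleavage and polyadenylation factor, had 1299 and 1509.5 against 102 and 107 (log2 fold change -3.73, SE 0.1, adjusted p = 1.16e-05). Proteins of mRNA storage had 3 of 17 lower and 3 higher (2 and 5 with the trends removed). Zar1l (chromosome 5, 150507055 to 150518164) had 1074 and 1098 scaled TPM in GV oocytes and 49.9 and 40.03 in MII oocytes (log2 fold change -4.57, SE 0.12, adjusted p = 1.16e-05), while Zar1, which anchors stored mRNA at mitochondria, stayed within 2-fold at 729 and 900.1 against 492 and 517 (interval -0.98 to -0.39). Ybx2, which coats stored mRNA, had 55.5 and 72.5 against 15.6 and 14.4 (log2 fold change -2.01, SE 0.16, adjusted p = 0.000157; lost with length and GC trends removed), and Lsm14b rose with 32.8 and 36.9 against 105 and 116 (log2 fold change 1.64, SE 0.12, adjusted p = 0.000106). Of the paralogues in this machinery, CPEB1 and CPEB4 thus had RNAs that moved in opposite directions. The RNAs of ZAR1 and ZAR1L were both below their GV levels, and differed in the size of the change.

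Chromatin regulators held many rises, fewer of them with length and GC trends removed. SWI/SNF, CHD and INO80 remodellers had 16 of 35 higher and 3 lower (median 0.97), but 4 higher and 2 lower with the trends removed (median 0.40). The large CHD, BAZ, BPTF, ATRX and ARID proteins had 11 of 15 genes higher, and their median transcript was 8507 bases long. Arid1a, the DNA-binding subunit of SWI/SNF, had 28.7 and 25.3 against 83.4 and 79.2 (log2 fold change 1.56, SE 0.12, adjusted p = 0.000128). Lysine demethylases had 8 of 21 higher and 1 lower (4 and 1 with the trends removed). Kdm6b, which removes methylation from lysine 27 of histone H3 (chromosome 11, 69398508 to 69413675), had 37.5 and 30.7 scaled TPM in GV oocytes and 158 and 145 in MII oocytes (log2 fold change 2.13, SE 0.13, adjusted p = 6.39e-05). Polycomb complexes had 9 of 27 higher and none lower (median 0.48; 6 higher, 1 lower and a median of 0.52 with the trends removed), and methyltransferases 8 of 37 higher and 2 lower (7 and 2 with the trends removed), one of the falls being that of Setd4 with 367 and 345 against 25.6 and 27.1 (log2 fold change -3.71, SE 0.1, adjusted p = 1.16e-05). Tet3, which oxidises 5-methylcytosine in the zygote, had 52.2 and 57.2 against 176 and 159 (log2 fold change 1.6, SE 0.11, adjusted p = 8.65e-05).

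Maternal factors for zygotic genome activation had 8 of 17 higher, 1 lower and 6 within 2-fold (median 0.91, and 1.08 with length and GC trends removed; 2 within 2-fold without the second MII library). Nfya, a pioneer factor of the zygote (chromosome 17, 48386885 to 48409906), had 76 and 66.5 scaled TPM in GV oocytes and 267 and 269 in MII oocytes (log2 fold change 1.9, SE 0.1, adjusted p = 4.24e-05). Klf17 had 552 and 528 against 1569 and 1501 (log2 fold change 1.51, SE 0.08, adjusted p = 4.42e-05) and Rbbp7, a histone chaperone shared by several complexes, 2564 and 2291 against 5934 and 5917 (log2 fold change 1.29, SE 0.09, adjusted p = 0.000112; lost after quantile normalization). All MII libraries lay above all GV libraries for these genes. Of 22 genes of the piRNA and small RNA pathway 4 fell and 2 rose. Gtsf1, a cofactor of PIWI proteins (chromosome 15, 103402405 to 103430470), had 1928 and 1557 scaled TPM in GV oocytes and 292 and 295 in MII oocytes (log2 fold change -2.56, SE 0.12, adjusted p = 2.62e-05). Bcl2l10, the BCL2 family member of oocytes, had 7989 and 7140.1 against 16848 and 16654 (log2 fold change 1.15, SE 0.1, adjusted p = 0.000202). After quantile normalization its log2 fold change was -0.0532 relative to the median gene, and the cause was not tested. H1f8, the oocyte linker histone and the most abundant RNA in MII oocytes, was not settled at 18245 and 16897 against 32391 and 31686 (interval 0.63 to 1.11).

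Further groups are read against the 24.8% lower and 13.0% higher of all genes. Rab GTPases were near these shares, with 8 of 38 lower (21.1%) and 6 higher (15.8%). Solute carriers had 36 of 185 lower (19.5%) and 16 higher (8.65%), both somewhat below those of all genes. Zfp zinc finger proteins had 36 of 270 lower (13.3%) and 33 higher (12.2%). Genes of the DNA damage response had 6 of 28 lower and 7 higher (median 0.31), but 2 lower and 1 higher with length and GC trends removed (median -0.18), with Chek1, the checkpoint kinase, at 339 and 336 against 887 and 851 (log2 fold change 1.36, SE 0.08, adjusted p = 5.74e-05; lost with the trends removed). Nucleoporins had 6 of 26 higher and 3 lower (median 0.65), and kinesins 7 of 26 higher and 2 lower (median 0.71, and no member higher with the trends removed). Tubulins, actins and actin-related proteins had 9 of 22 lower and 2 higher (7 and 5 with the trends removed). Tubb4b, a beta tubulin, had 896 and 1174 against 70.4 and 77.2 (log2 fold change -3.78, SE 0.14, adjusted p = 1.64e-05), Actb, cytoplasmic actin, stayed within 2-fold at 59.4 and 70.9 against 53.6 and 59.7, and Actr2, of the ARP2/3 complex that nucleates actin, rose with 38.4 and 35.5 against 152 and 129 (log2 fold change 1.9, SE 0.12, adjusted p = 7.26e-05).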

How the data were processed

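Smart-seq2 libraries of 15 uninjected GV or MII oocytes were compared, 2 per stage, grouped by their titles and the label WT. According to the methods and processing notes, the authors trimmed reads with Trim Galore 0.6.10, aligned them to GRCm38 with HISAT2 2.2.0, and counted them on exons of GENCODE vM25 with featureCounts 2.0.6, without strand, using primary alignments with a mapping quality of at least 10. They deposited TPM per gene symbol, with no read counts used here. The gene lengths behind the TPM and the rule for listing genes are not given in the sources used here. The deposited TPM summed to 996199 to 998615 per library, and depth is unknown, so precision rests on 2 libraries per stage.

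From these values, scaling factors were computed by the median of ratios (0.960 to 1.10), and genes that reached 1 TPM in 2 or more libraries were tested with limma 3.58.1 in R 4.3.3 (lmFit and eBayes with trend) on log2(scaled TPM + 1), with Benjamini-Hochberg adjustment over 13882 genes. Calls needed an adjusted p under 0.05 and a log2 fold change beyond 1. The fit was tested on simulated data for this comparison, where 200 of 200 genes changed by 2 on the log2 scale were recovered among 13882, with 0 wrong calls. The simulation drew normal noise, changed only genes well above the filter and did not repeat the scaling. It therefore says nothing of scaling error, of genes at low levels or of changes near 2-fold.

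Genes were named by rule: the 12 largest falls and rises of protein-coding genes with at least 10 scaled TPM, the 3 largest falls, 3 largest rises and 2 most abundant members of each group, all members of groups of 15 or fewer, the 10 most abundant genes of each stage and of those within 2-fold, and Btg4, Zp3, Gtsf1, Pabpn1l and Gapdh. The 12 largest falls and rises also needed both MII libraries on one side of both GV libraries. Other names were chosen after their values were seen. The members and gene lists were chosen with earlier results of these data known. Of the genes tested, 13565 matched GENCODE M21 by symbol, 139 by an older symbol and 178 not at all; the representative transcript was the longest principal protein-coding one. Alternatives were other scalings, pseudocounts, filters, thresholds and fits, loess trends on length and GC removed (span 0.3), and leaving out each library. The injected oocytes entered only the alternative with all 8 libraries.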

Additional observations from a re-analysis of the deposited data

How the results depend on the processing

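The number of lower genes ranged from 2783 after quantile normalization to 3808 on the deposited TPM among the 3 scalings that use all genes, and the number of higher genes from 1165 on the deposited TPM to 3131 after quantile normalization. Counts with every library at least 2-fold higher were 614 and 2081 under those settings, and quantile normalization moved the median to 0.25. Scaling to the mitochondrially encoded genes gave 11479 lower, 7 higher and 415 genes within 2-fold, with 10106 and 2 genes at least 2-fold lower and higher in every library and a median of -1.79. Without a filter 6915 genes were within 2-fold, since 3502 genes near 0 were added. With no minimum fold change 4175 genes were higher. Removing length and GC trends gave 2358 lower and 2439 higher genes, raised the number of genes 2-fold or more higher in every library to 1650, and kept 2143 of 3384 lower and 1080 of 1790 higher genes on their side of the threshold. In that setting Aldoa turned to 0.045, Bad to 0.21 and Gapdh to 1.03, and after quantile normalization Bcl2l10 turned to -0.0532 relative to the shifted median; the cause was not tested. Leaving out 1 library gave 3189 to 3553 lower, 1706 to 2093 higher and 2771 to 3247 genes within 2-fold. These fits leave 1 library in a stage, which is assumed to vary like the others. Of the 439 genes named in the text or by the naming rule, 16 lost their call without the first GV library, 9 without the second, 8 without the first MII library and 7 without the second, and of those described above this was so for Zbed3, at 0.99 without the first GV library, and Nlrp2, at -0.95 without the second MII library. With length and GC trends removed 75 of them lost their call. After allowing for the shift of the median, 36 lost their call under quantile normalization and 84 under scaling to the mitochondrially encoded genes, among the latter Cnot7, Psmd1, Timm21 and Ndufa10.

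The replicate numbers did not pair the libraries. Same-numbered libraries deviated from their stage means with a correlation of -0.02 across genes. A fit with the replicate number as a block gave 3478 lower, 1821 higher and 3949 genes within 2-fold, all 3436 lower genes remained lower, and no named gene changed its call. The pseudocount of 0.1, the filters at 5 TPM and on a mean of 1 TPM, protein-coding genes alone, all 8 libraries, eBayes without trend and an adjusted p under 0.01 kept the counts of lower and higher genes within 1.5 times. The depth of the libraries is unknown, and genes near 1 TPM are limited by it most.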

Other observations

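Genes listed for uninjected oocytes only were mostly near the lower limit of the test. Of these 1422 genes 341 were tested, and 101 fell, 8 rose and 22 stayed within 2-fold, with a median log2 fold change of -0.76 against 0.00 for the genes in both sets of tables. Fam25c (chromosome 14, 34351881 to 34355433) had 37.1 and 54 scaled TPM in GV oocytes and 1.12 and 0.389 in MII oocytes (log2 fold change -4.74, SE 0.29, adjusted p = 6.10e-05). Ifi27l2a, an interferon-induced membrane protein, had 11.4 and 13.2 against 2.3 and 1.03 (log2 fold change -2.36, SE 0.28, adjusted p = 0.000724).

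Among classes of genes in the annotation, long intergenic and antisense RNAs had smaller shares of rises than protein-coding genes, a difference that was not tested. Of 10996 protein-coding genes 24.6% were lower and 13.6% higher (median 0.04). Of 872 genes annotated as long intergenic RNAs 27.2% were lower and 7.80% higher (median -0.32), of 398 antisense genes 28.9% and 9.80% (median -0.39), and of 712 processed pseudogenes 24.2% and 13.1% (median -0.15). Antisense genes cannot be told apart from their sense partners without strand, and pseudogenes share reads with their parent genes.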
